A study of Mus musculus with 12 samples.

Results

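The extracellular proteases of the MMP, ADAM and ADAMTS families, their TIMP inhibitors and the secreted HtrA serine proteases were examined in the nucleus pulposus of mice that lost Opa1 as adults. Earlier results of these data were known when the members were chosen. Members were taken by gene symbol alone: Mmp, Adam or Adamts followed by a number, Timp1 to Timp4, and Htra1, Htra3 and Htra4. That gave 81 of the 32285 genes in the deposited count table, made up of 22 MMP, 33 ADAM, 19 ADAMTS, 4 TIMP and 3 HtrA genes. The nucleus pulposus, the soft centre of an intervertebral disc, was dissected from tail discs, with RNA of 1 mouse in each library. There were 6 Opa1cKO and 6 WT mice, all 12 months old and of a mixed C57BL/6-129/SvEv strain. In Opa1cKO mice, Opa1, a GTPase that fuses inner mitochondrial membranes, had been removed at 3 months of age by AcanCre, a Cre recombinase that tamoxifen switches on wherever the aggrecan gene is active, in disc and cartilage. Mice of both genotypes had received tamoxifen at 100 mg/kg on 3 days and were then kept for 9 further months, and the labels name the control genotype only as WT.

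These proteases remodel the matrix and cut proteins from the cell surface. MMPs are zinc enzymes that degrade collagens and other matrix proteins, several ADAMTS enzymes cut aggrecan or trim procollagens, and ADAMs release growth factors, cytokines and receptors from membranes. TIMPs block the active site of MMPs and, for some TIMPs, of ADAMs and ADAMTS enzymes, and most MMPs are made as inactive precursors. HtrA1 and HtrA3 are secreted serine proteases that lie outside the reach of TIMPs. In the disc, loss of aggrecan and collagen through such enzymes is a recognised part of degeneration. RNA levels say nothing of the activation or inhibition of the proteins.

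Library totals ran from 37268242 to 56618266 reads in Opa1cKO and from 45657321 to 53261644 in WT (exact permutation p = 0.502, two-sided). Opa1 itself had 38.0, 39.01, 30.3, 42.6, 46.0 and 47.7 CPM in Opa1cKO libraries 1 to 6, against 96.1, 110, 108, 118, 69.3 and 107 CPM in WT libraries 1 to 6. CPM is a read count relative to library size, scaled with TMM factors that correct for differences in library composition. The genotypes did not overlap, and Opa1 was lower by 1.22 on the log2 scale (log2 fold change -1.22, SE 0.12, edgeR adjusted p = 3.1e-05). The defining notochordal transcription factor T averaged 2882 ± 274 CPM in Opa1cKO and 2719 ± 245 in WT (SD, n = 6 each). Of the 14 nucleus pulposus markers 12 were tested, with log2 fold changes from -1.08 (Foxa2) to 1.14 (Col2a1). EdgeR called 0 of them and DESeq2 2, and 4 had an unadjusted edgeR p below 0.05, with Cd24a, Acan and Foxa2 lower and Col2a1 higher. By sex-linked reads 3 of the 6 Opa1cKO and 1 of the 6 WT libraries were male. These reads went against the labelled sex in 4 libraries, Opa1cKO 4 and WT 4, 5 and 6. A fit with labelled sex, as used here, thus does not hold sex constant. Without those libraries 325 genes were called in all (2.07% of the genes tested), and Htra3 was the only protease or inhibitor gene among them. Of the libraries kept, 3 of 5 Opa1cKO and 0 of 3 WT were male by reads. Opa1cKO 6 also stood apart for several genes below, and its values are given beside those results.

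Of the 81 genes, 39 passed the filter on low counts and were tested, and 42 were not. Among the untested, 13 had no read in any library (Adam20, Adam26a, Adam26b, Adam29, Adam34, Adam39, Adam6a, Adam6b, Adam7, Adamts19, Mmp12, Mmp1b and Mmp7). Zero reads allow up to 3 reads a library by counting error, or 0.0530 CPM in the largest library and 0.0805 CPM in the smallest. The other 29 had few reads, the highest being 72 for Adamts13 in Opa1cKO 2. At an edgeR adjusted p below 0.05, adjusted over all 15229 genes tested, 4 protease and inhibitor genes were called: Timp1 was higher and Htra3, Htra1 and Adam9 were lower in Opa1cKO. These 4 are 10.3% of the 39, and 10.2% of all tested genes were called, so the genes of these families were called about as often as any gene. By direction, 5.1% of all tested genes were called higher and 5.13% lower. DESeq2 called 7 of the 39 and 15.2% of all tested genes. An unadjusted p below 0.05 was found for 16 of the 39, a larger share than the 25.2% of all tested genes in the same fit. Whether these shares differ was not tested. The median log2 fold change was 0.11 over the 39 and 0.01 over all tested genes, with 25 of the 39 above 0 and 14 below. These p-values measure the spread between mice, and in bulk tissue fewer cells of a type and less RNA per cell cannot be told apart.

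**Figure D1:**
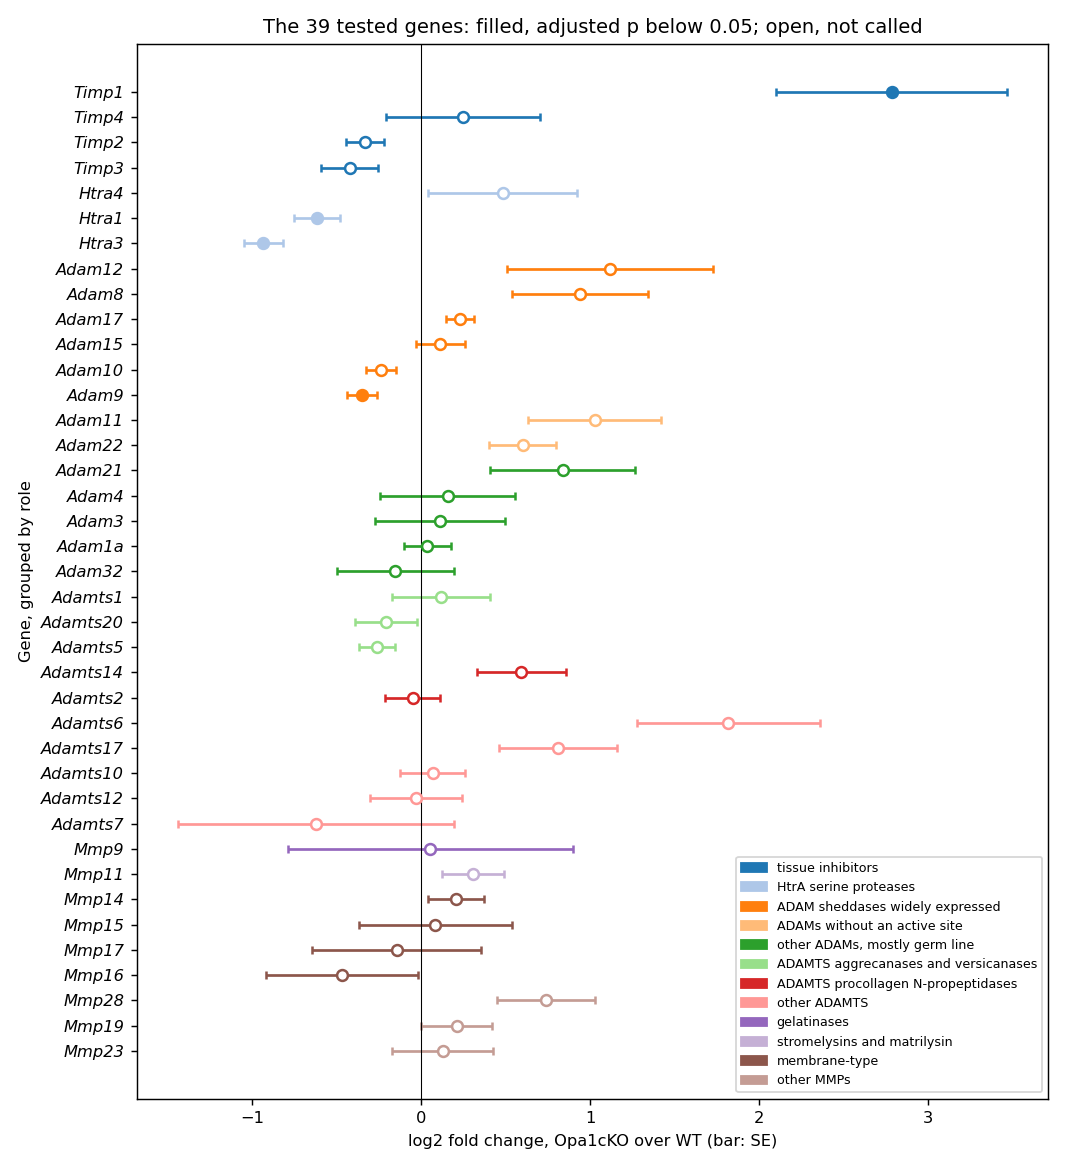
Log2 fold changes of the 39 tested genes, Opa1cKO over WT, with bars of 1 SE, on the x axis, and genes grouped by role on the y axis. Filled points passed an adjusted p of 0.05 and open points did not: Timp1 lies at 2.79 on the right, while Htra3 at -0.93, Htra1 at -0.62 and Adam9 at -0.35 lie on the left.

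Levels were compared between genes on the deposited TPM scale, which is set per transcript length. A serine protease and 2 inhibitors dominated in both genotypes. Htra1 averaged 1966 ± 336 TPM in Opa1cKO and 2893 ± 306 in WT (SD, n = 6 each, as for all means here). Timp3 averaged 1475 ± 345 TPM in Opa1cKO and 2038 ± 309 in WT, and Timp2 averaged 1079 ± 121 TPM in Opa1cKO and 1325 ± 70.1 in WT. In WT the ranges of these 3 genes did not overlap each other, while in Opa1cKO neighbours in the order did. Next in WT came Adamts1, with 248.8 ± 97.6 TPM in Opa1cKO and 212 ± 77.9 in WT, and then Adam9, Adam10, Htra3 and Adam15, with WT means between 69.4 and 112 TPM. Over WT libraries neighbours in this order overlapped, except that Adam10 (from 89.8 TPM) lay above Htra3 (up to 85.7 TPM). The highest MMP was Mmp14, a membrane-type enzyme that activates proMMP2, with 36.97 ± 8.08 TPM in Opa1cKO and 30.9 ± 7.91 in WT. In all, 32 of the 81 genes had a mean of 1 TPM or more over the 12 libraries, and all 32 were tested.

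**Figure D2:**
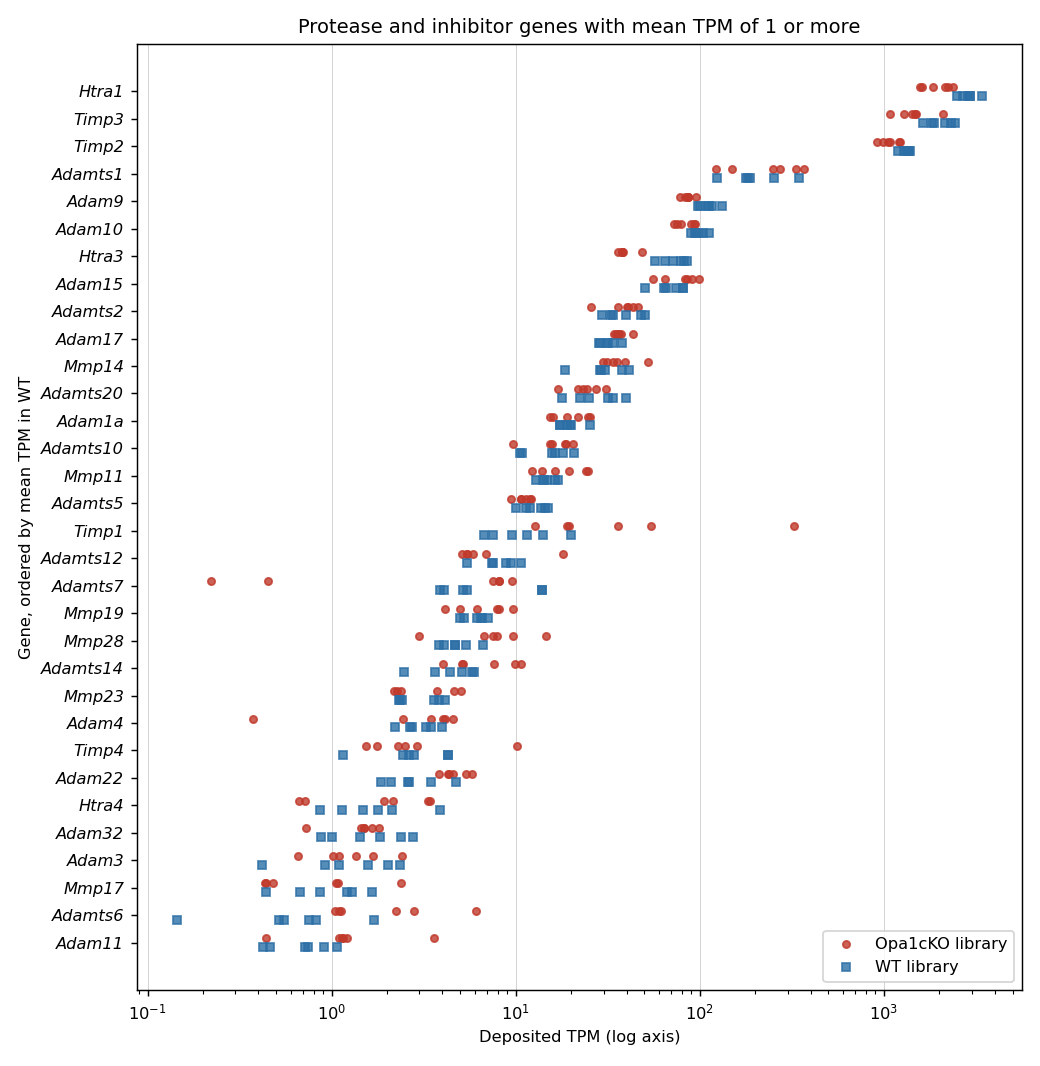
Deposited TPM (log x axis) of the 32 genes with a mean of 1 TPM or more, 1 point a library, red circles for Opa1cKO and blue squares for WT, ordered by mean TPM in WT on the y axis. Htra1, Timp3 and Timp2 lie to the right of every other gene in all libraries, and the 1 far-right Timp1 point is Opa1cKO 6.

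Summed by family, mean TPM was lower in Opa1cKO for TIMPs, HtrA proteases and ADAMs and higher for MMPs and ADAMTS genes, given here as levels with no test. The 4 TIMPs summed to 2635 ± 355 TPM in Opa1cKO and 3378 ± 315 in WT, with Opa1cKO 5 (3337) inside the WT range. The 3 HtrA genes summed to 2007 ± 334 TPM in Opa1cKO and 2969 ± 314 in WT, with no overlap. MMPs summed to 78.4 ± 10.7 TPM in Opa1cKO and 63.6 ± 10.1 in WT, ADAMTS genes to 363 ± 100.9 in Opa1cKO and 330 ± 87.4 in WT, and ADAMs to 322 ± 15.0 in Opa1cKO and 343 ± 14.9 in WT. The ratio of summed TIMP TPM to summed MMP, ADAM and ADAMTS TPM was 3.49 ± 0.545 in Opa1cKO and 4.63 ± 0.640 in WT. A few abundant genes set these sums, Timp3 and Timp2 making up most of the inhibitor TPM.

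Among the 4 inhibitors, edgeR called 1 higher and 3 not, DESeq2 also called Timp2 lower, and the abundant Timp2 and Timp3 had lower means in Opa1cKO. Timp1 (ENSMUSG00000001131, chromosome X, 20870166 to 20874735, plus strand, mm10), a secreted inhibitor that responds to growth factors and cytokines in many tissues, had 6.89, 3.65, 10.8, 3.74, 2.50 and 59.6 CPM in Opa1cKO libraries 1 to 6. WT libraries 1 to 6 had 1.99, 3.94, 1.48, 2.59, 2.21 and 1.32 CPM. Opa1cKO 6 was far above every other library, Opa1cKO 1 and 3 were above all of WT, and Opa1cKO 2, 4 and 5 lay inside the WT range. The medians were 5.32 CPM in Opa1cKO and 2.10 in WT, and the fitted log2 fold change was 2.79 (SE 0.68, edgeR adjusted p = 0.0262). Without Opa1cKO 6 the log2 fold change was 1.22 with an adjusted p of 0.229, so the call rests on that mouse. Without it 5.34% of all tested genes and 2 of the proteases and inhibitors, Htra3 and Htra1, were called. The share of Timp1 in inhibitor TPM reached 13.9% in Opa1cKO 6, against 0.203% to 0.539% in WT. The call was also lost without WT 1 (adjusted p 0.0542), WT 2 (0.0533), WT 4 (0.0566) or WT 6 (0.0565).

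The start of Timp1 is shown because, of the 24 tested genes of these families with a promoter window, only Timp1 held a TGAGTAA motif. The other tested genes had no window to search. TGAGTAA is a variant of the site bound by AP-1 (Fos and Jun dimers). The sequence is RefSeq's, on the plus strand of GRCm38.p6 at chrX:20869916-20870215, and runs from 250 bases before the start site to 50 from it. Capitals mark first GCGTG and then ACGTG, which are cores of hypoxia response elements, and last the motif TGAGTAA. This last motif begins at base 27 after the start site, not before it.
Timp1 promoter: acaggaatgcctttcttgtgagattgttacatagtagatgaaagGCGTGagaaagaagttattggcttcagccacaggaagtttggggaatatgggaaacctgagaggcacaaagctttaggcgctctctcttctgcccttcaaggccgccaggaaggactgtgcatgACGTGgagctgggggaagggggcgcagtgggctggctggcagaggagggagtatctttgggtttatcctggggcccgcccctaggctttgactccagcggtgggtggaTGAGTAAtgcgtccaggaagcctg
Both strands were searched in windows of this length. TGAGTAA was found in 2.64% of 32544 RefSeq windows of the mouse genome, and ACGTG or GCGTG in 44.0% of them. Of the 24 tested protease and inhibitor genes with a window, 14 held ACGTG or GCGTG. None held the AP-1 motif TGANTCA, searched with any base as N, which 7.79% of all windows held. The windows of Htra1 and Htra3 held none of these motifs. A match describes letters only.

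Timp2, an inhibitor that also takes part in proMMP2 activation with Mmp14, had 965, 972, 1153, 920, 1148 and 803 CPM in Opa1cKO libraries 1 to 6, against 1333, 1289, 1206, 1049, 1230 and 1307 CPM in WT libraries 1 to 6. Opa1cKO 3 and 5 overlapped WT, and the other 4 Opa1cKO libraries lay below it. The log2 fold change was -0.33 (SE 0.11, edgeR adjusted p = 0.0780), and DESeq2 called it (adjusted p = 0.0232). In edgeR it was also called without Opa1cKO 3 (adjusted p 0.0453) or Opa1cKO 5 (0.0285). Without Opa1cKO 6 the Timp2 log2 fold change was -0.24 (adjusted p 0.253). Timp3, the matrix-bound inhibitor that also acts on ADAM17 and ADAMTS enzymes, ran from 1814 to 3807 CPM in Opa1cKO (median 2517) and from 2946 to 4336 CPM in WT (median 3624). Opa1cKO 5, at 3807 CPM, was the only Opa1cKO library above the WT minimum. The log2 fold change was -0.42 (SE 0.17, adjusted p = 0.127). It was -0.65 without Opa1cKO 5 (adjusted p 0.0202) and -0.25 without Opa1cKO 6 (adjusted p 0.337). Syn3, on the opposite strand, overlaps 21.3% of Timp3's exon bases, and since the counting is not known to use strand, reads of the pair cannot be told apart. Timp4 averaged 4.45 ± 3.99 CPM in Opa1cKO and 3.82 ± 1.67 in WT, with 12.5 CPM in Opa1cKO 6 (log2 fold change 0.25, adjusted p = 0.782).

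Both abundant HtrA proteases fell. Htra3 (ENSMUSG00000029096, chromosome 5, 35652023 to 35679782, minus strand), a secreted serine protease that can cut matrix proteoglycans, had 36.1, 35.9, 37.7, 37.1, 35.6 and 44.4 CPM in Opa1cKO libraries 1 to 6, against 74.7, 63.3, 83.6, 52.5, 78.1 and 78.2 CPM in WT libraries 1 to 6. Every Opa1cKO library was below every WT library, a separation seen for 6.41% of all tested genes, 3.64% lower and 2.77% higher in Opa1cKO. The means were 37.8 ± 3.33 CPM in Opa1cKO and 71.7 ± 11.6 in WT, and the fitted level was 0.523 times that of WT (log2 fold change -0.93, SE 0.11, adjusted p = 0.000235 in edgeR). The call stood with any 1 library left out, with log2 fold changes between -1.04 and -0.89, and without the 4 libraries of contradicted sex (-0.89, adjusted p 0.0255). It was lost in labelled females alone, with 2 Opa1cKO and 4 WT libraries (-0.77, adjusted p 0.0983), where none of the proteases and inhibitors and 1.9% of all tested genes were called. In labelled males alone it was the 1 call among them (-1.09, adjusted p 0.00122), with 2.64% of all tested genes called. By reads, 3 of the 4 Opa1cKO libraries labelled male were male and both WT libraries labelled male were female, so genotype and sex cannot be told apart in that subset.

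Htra1 (ENSMUSG00000006205, chromosome 7, 130936111 to 130985660, plus strand), a protease that cuts fibronectin and aggrecan among other proteins, had 1336, 1124, 1544, 1025, 1420 and 939 CPM in Opa1cKO libraries 1 to 6, against 1831, 1815, 1859, 1490, 2119 and 1873 CPM in WT libraries 1 to 6. Only Opa1cKO 3 overlapped WT, where it lay above WT 4. The means were 1231 ± 238 CPM in Opa1cKO and 1831 ± 201 in WT, and the fitted level was 0.652 times that of WT (log2 fold change -0.62, SE 0.14, adjusted p = 0.0115 in edgeR). With each library left out in turn the log2 fold change stayed between -0.75 and -0.53, called each time. Htra4 was low, with 1.07 ± 0.629 CPM in Opa1cKO and 0.993 ± 0.574 in WT (log2 fold change 0.48, adjusted p = 0.536), and 32.9% of its exon bases overlap an antisense gene.

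**Figure D3:**
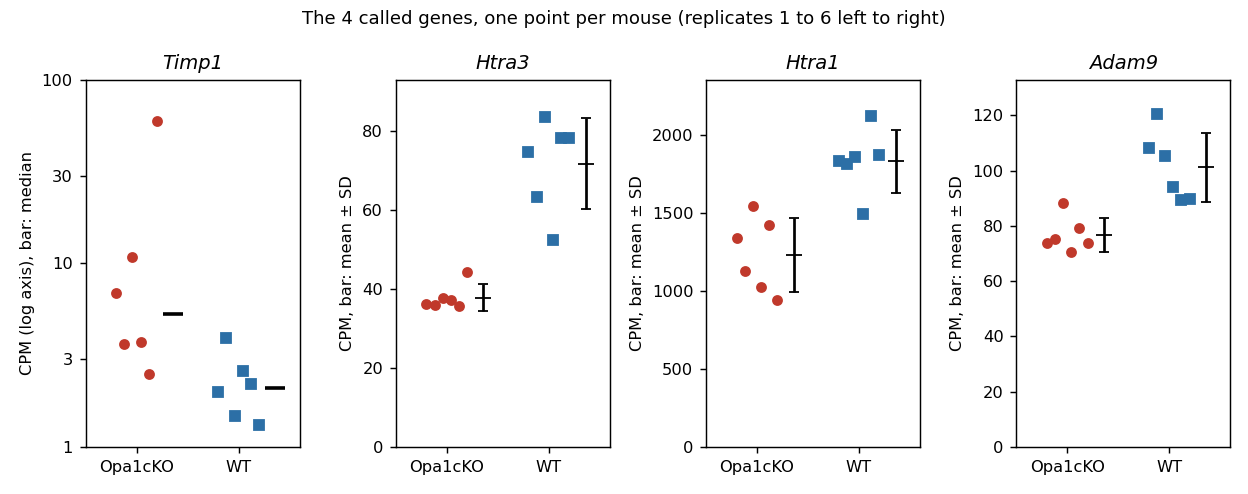
CPM of the 4 called genes, 1 point a mouse with replicates from left to right, Opa1cKO in red and WT in blue, with a log y axis and median bars for Timp1 and y axes from 0 with mean ± SD for Htra3, Htra1 and Adam9. For Htra3 and Adam9 the genotypes do not overlap, and for Timp1 Opa1cKO 6 at 59.6 CPM stands far above the rest.

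Of the 6 tested ADAM sheddases, 1 fell and 5 did not pass the test, with a list median log2 fold change of 0.17. An unadjusted edgeR p below 0.05 was found for 4 of the 6, and for 25.2% of all tested genes. Adam9 (ENSMUSG00000031555, chromosome 8, 24949611 to 25016927, minus strand), a widely expressed sheddase, had 73.9, 75.2, 88.2, 70.6, 79.1 and 73.9 CPM in Opa1cKO libraries 1 to 6, against 108, 121, 105, 94.3, 89.2 and 89.7 CPM in WT libraries 1 to 6. The genotypes did not overlap, but only narrowly, between 88.2 CPM in Opa1cKO 3 and 89.2 in WT 5. The log2 fold change was -0.35 (SE 0.09, edgeR adjusted p = 0.0250). The call was lost without Opa1cKO 5 (adjusted p 0.0536) or Opa1cKO 6 (-0.30, adjusted p 0.105). Adam9 and Htra3 were the only 2 of the 39 tested protease and inhibitor genes with separate ranges, both lower in Opa1cKO. Of all tested genes 6.41% had separate ranges, 3.64% lower in Opa1cKO, so such separation was not particular to these families.

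The main sheddases of Notch, amyloid precursor protein and TNF moved little. Adam10 averaged 84.0 ± 9.45 TPM in Opa1cKO and 99.1 ± 7.93 in WT (log2 fold change -0.24, edgeR adjusted p = 0.105). Adam17, which releases TNF and EGF receptor ligands, averaged 37.1 ± 3.18 TPM in Opa1cKO and 32.0 ± 3.60 in WT (0.23, adjusted p = 0.103). Their differences had opposite signs and neither passed the test in the fit with labelled sex, while Adam10 was called with no sex term. Adam15 ran from 77.5 to 132 CPM in Opa1cKO and from 68.1 to 109 in WT (0.11, adjusted p = 0.679), and 20.6% of its exon bases overlap an antisense gene. Adam12 (1.12, adjusted p = 0.275) and Adam8 (0.94, adjusted p = 0.161), both linked to matrix remodelling, had medians of 0.473 and 0.722 CPM in Opa1cKO against 0.298 and 0.405 CPM in WT, few reads for a firm value. Opa1cKO 6 had 2.55 CPM of Adam12 and the other Opa1cKO libraries 0.242 to 0.592, and without Opa1cKO 6 the log2 fold change was 0.01.

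ADAMs without an active site act as adhesion or ligand-binding proteins, and both tested members had higher means in Opa1cKO without passing the test in the fit with labelled sex. Adam22, a receptor for LGI proteins known from synapses, had 17.8, 12.96, 14.7, 17.0, 12.2 and 12.8 CPM in Opa1cKO libraries 1 to 6, against 7.13, 8.27, 5.84, 14.0, 8.18 and 11.02 CPM in WT libraries 1 to 6. All WT libraries but WT 4 lay below the Opa1cKO minimum. The log2 fold change was 0.60 (SE 0.20, edgeR adjusted p = 0.0689), and without WT 4 the adjusted p was 0.00501. With sex taken from the reads, Adam22 was called (adjusted p = 0.0442). It was called as well with no sex term (adjusted p = 0.0264), in DESeq2 and in limma-voom (adjusted p = 0.0439). Adam11 was at 4.24 CPM in Opa1cKO 6 and between 0.563 and 1.49 CPM in the other Opa1cKO libraries (1.03, adjusted p = 0.114, and 0.47 without Opa1cKO 6). Of the other 21 ADAMs, known mostly from testis and sperm, 5 were tested and 0 called by edgeR or by DESeq2, with 0 at an unadjusted p below 0.05 and a median log2 fold change of 0.11. These were Adam21 (0.84), Adam4 (0.16), Adam3 (0.11), Adam1a (0.04) and Adam32 (-0.15), of which Adam1a shares 63.7% of its exon bases with a second gene on its own strand, so its value is uncertain. Adam4 was at 0.211 CPM in Opa1cKO 3 and reached 2.56 CPM in the other Opa1cKO libraries, against 1.31 to 2.19 CPM in WT.

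Of the aggrecanases and versicanases, 3 of 7 were tested and 0 called by edgeR or DESeq2, with 1 (Adamts5) at an unadjusted edgeR p below 0.05 and a list median of -0.21. Adamts1, an enzyme that cuts aggrecan and versican and is induced early by many stimuli, had 285, 304, 146, 429, 394 and 164 CPM in Opa1cKO libraries 1 to 6, against 235, 208, 212, 137, 290 and 408 CPM in WT libraries 1 to 6. The genotypes overlapped over nearly their whole range, and the log2 fold change was 0.12 (edgeR adjusted p = 0.848). Its sign turned to -0.26 in labelled males alone and to -0.27 without Opa1cKO 5. The immediate early gene Fos, a subunit of AP-1, had 2320, 1513, 750, 4275, 3785 and 1925 CPM in Opa1cKO libraries 1 to 6, against 310, 265, 127, 177, 654 and 2050 CPM in WT libraries 1 to 6 (log2 fold change 2.21, adjusted p = 0.0572). Opa1cKO 4 and 5 had the highest Opa1cKO values of both genes and WT 6 the highest WT value of both, and the part of Fos or of tissue handling in the Adamts1 level was not tested. Adamts5, the main cartilage aggrecanase in mice, averaged 25.8 ± 2.01 CPM in Opa1cKO and 30.2 ± 4.59 in WT (-0.26, adjusted p = 0.141). Adamts20 averaged 24.1 ± 4.79 TPM in Opa1cKO and 28.4 ± 8.15 in WT (-0.21, adjusted p = 0.516). Adamts4, the other well-known aggrecanase, was not tested, with 2 to 16 reads a library in Opa1cKO and 2 to 18 in WT.

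The procollagen N-propeptidases trim fibrillar procollagens before fibrils form. Adamts2 averaged 38.7 ± 7.34 TPM in Opa1cKO and 39.1 ± 8.53 in WT (log2 fold change -0.05, edgeR adjusted p = 0.888), and its sign changed with the settings. Adamts14 ran from 4.63 to 11.5 CPM in Opa1cKO and from 3.02 to 6.46 in WT (0.59, adjusted p = 0.174). Among the remaining ADAMTS genes, 5 of 9 were tested and 0 called by edgeR, with 2 at an unadjusted p below 0.05 (Adamts6 and Adamts17) and 1 called by DESeq2 (Adamts6, adjusted p = 0.00456). Adamts6, a regulator of fibrillin microfibrils, had 1.75, 1.81, 4.89, 3.86, 1.94 and 9.78 CPM in Opa1cKO libraries 1 to 6, against 0.265, 0.951, 2.91, 1.32, 0.867 and 1.30 CPM in WT libraries 1 to 6. Only WT 3 lay above the lowest Opa1cKO library, and Opa1cKO 6 was again the highest. The log2 fold change was 1.82 (SE 0.54, adjusted p = 0.0516), and without Opa1cKO 6 it was 1.15 (adjusted p = 0.345).

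Single libraries also stood apart in this group. Adamts12 was at 41.0 CPM in Opa1cKO 6 and at 12.4 to 16.3 in the other Opa1cKO libraries (log2 fold change -0.03, edgeR adjusted p = 0.964, and -0.55 with an adjusted p of 0.0623 without Opa1cKO 6). Adamts7, which cuts cartilage oligomeric matrix protein, was at 0.306 CPM in Opa1cKO 4 and 0.585 in Opa1cKO 6, but at 10.2 to 13.5 in the other Opa1cKO libraries and at 5.35 to 19.3 in WT (-0.62, adjusted p = 0.690). Adamts17 (0.81, adjusted p = 0.163) and Adamts10 (0.07, adjusted p = 0.866), both linked to fibrillin, were not called.

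**Figure D4:**
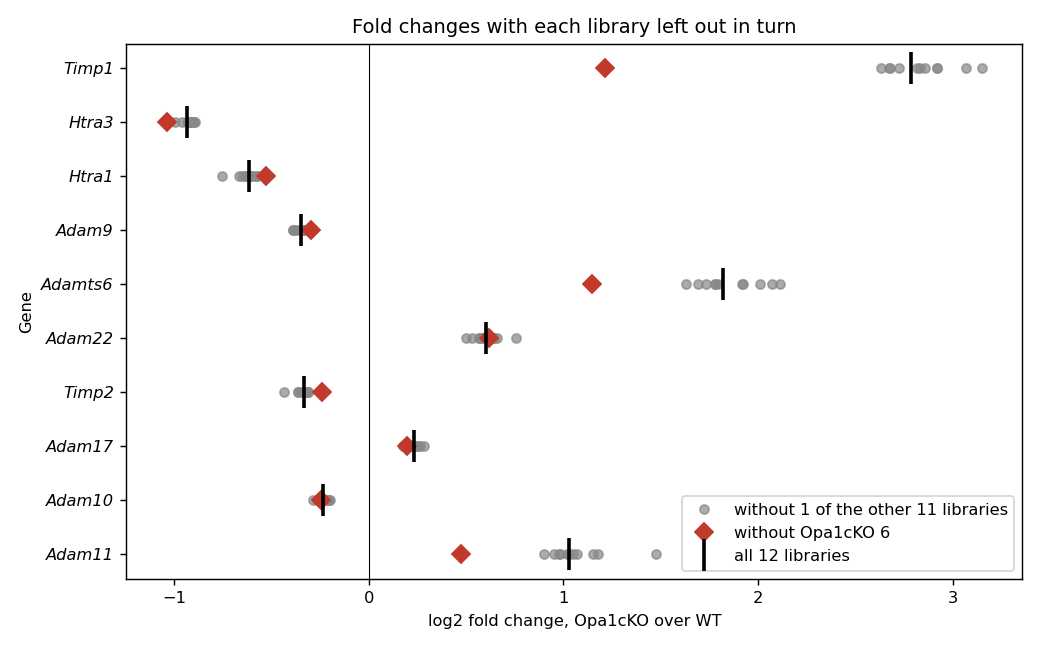
Log2 fold changes, Opa1cKO over WT (x axis), of the 4 called genes and the 6 uncalled genes with the smallest unadjusted p (y axis), with each library left out in turn. Black bars mark the value from all 12 libraries and red diamonds the value without Opa1cKO 6, which is 1.22 for Timp1, 1.15 for Adamts6 and 0.47 for Adam11.

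None of the 9 tested MMPs passed the test in edgeR or in DESeq2, 1 (Mmp28) had an unadjusted edgeR p below 0.05, and their median log2 fold change was 0.13. Mmp14 ran from 39.3 to 66.9 CPM in Opa1cKO (mean 47.7 ± 9.90) and averaged 40.1 ± 8.82 CPM in WT (log2 fold change 0.21, adjusted p = 0.477). Mmp28, or epilysin, had 8.12, 6.14, 6.88, 5.72, 2.58 and 11.8 CPM in Opa1cKO libraries 1 to 6, against 3.74, 3.98, 3.26, 5.30, 3.90 and 4.60 CPM in WT libraries 1 to 6. All Opa1cKO libraries but Opa1cKO 5 lay above WT. The log2 fold change was 0.74 (edgeR adjusted p = 0.122), with 1.00 (adjusted p = 0.00586) without Opa1cKO 5 and 0.22 (adjusted p = 0.741) without Opa1cKO 6. Mmp11, or stromelysin-3 (0.31, adjusted p = 0.314), and Mmp19 (0.21, adjusted p = 0.570, with 22.3% of exon bases under an opposite-strand gene) had higher fitted levels in Opa1cKO, while Mmp16 (-0.47, adjusted p = 0.559) and Mmp17 (-0.14, adjusted p = 0.895) had lower ones, and none of these passed the test. The gelatinase Mmp9, an enzyme that neutrophils and osteoclasts carry in quantity, had 1 to 28 reads a library in Opa1cKO and 3 to 69 in WT (0.06, adjusted p = 0.976). The 7 neutrophil and marrow markers summed to 0.710 to 10.4 CPM over Opa1cKO libraries, the most in Opa1cKO 6. Over WT libraries they summed to 0.347 to 24.3 CPM, the most in WT 2, which also had the most Mmp9 reads. Within Opa1cKO the most Mmp9 reads were in libraries 4 (28) and 5 (25), where these markers summed to 1.72 and 2.77 CPM. Opa1cKO 6 had 15 Mmp9 reads. The part of neutrophil and marrow cells was not tested. Mmp2, the other gelatinase, had 3 to 17 reads a library in Opa1cKO and 0 to 20 in WT and was not tested.

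The MMPs that lie together on chromosome 9 were nearly silent. The deposited counts held no Mmp1a. Of the MMP genes counted, 9 lie there between 7272514 and 7699585 (GRCm38): Mmp13, Mmp12, Mmp1b, Mmp3, Mmp10, Mmp8, Mmp27, Mmp20 and Mmp7. None was tested, 3 had no read, and the 9 together had 184 reads in the 6 Opa1cKO libraries and 130 in the 6 WT libraries. Mmp3, or stromelysin-1, had 20, 5, 8, 4, 3 and 66 reads in Opa1cKO libraries 1 to 6, against 0, 3, 7, 3, 12 and 2 reads in WT libraries 1 to 6. Outside Opa1cKO 6 and 1 the genotypes overlapped. Mmp13, a collagenase of hypertrophic cartilage, had 1 to 18 reads in Opa1cKO, the most in Opa1cKO 6, and 0 to 10 in WT. The 6 hypertrophic cartilage and bone markers summed to 0.771 to 19.9 CPM over Opa1cKO libraries and to 0.818 to 4.90 CPM over WT libraries, and the highest value, in Opa1cKO 6, held 19.1 CPM of Col10a1. Of these markers 3 were tested and 0 were called by edgeR or DESeq2. Their log2 fold changes ran from -1.56 to 2.05 with a median of -1.20, and 2 had an unadjusted edgeR p below 0.05. The part of such cells was not tested. Mmp8, the neutrophil collagenase, had 26 reads in Opa1cKO 6 and 47 in WT 2, with at most 4 in any other library.

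The remaining untested genes had few reads in both genotypes. Adam33, a sheddase known from airway smooth muscle and other mesenchyme, had 8, 3, 2, 1, 10 and 1 reads in Opa1cKO libraries 1 to 6, against 8, 10, 8, 5, 15 and 5 reads in WT libraries 1 to 6. Adam24 had 1 to 15 reads in Opa1cKO and 0 to 2 in WT. These genotypes overlapped, and no value at this depth was tested. Adamts13, which cuts von Willebrand factor, had 72 reads in Opa1cKO 2, at most 7 in the other Opa1cKO libraries and at most 9 in WT. Adamts18 had at most 3 reads in any Opa1cKO library and 13 and 9 in WT 3 and 4. Mmp25, a leukocyte enzyme, had 13 reads in Opa1cKO 6 and 11 in WT 2, with at most 3 elsewhere, and those are the 2 libraries with the highest neutrophil marker sums. Mmp24 and Mmp21 reached 14 and 1 reads in Opa1cKO and 6 and 8 in WT. Adamts3, Adamts8, Adamts9, Adamts15 and Adamts16 had at most 13 reads in any library.

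The promoters of this cluster are shown because 7 of its 9 genes held the AP-1 motif TGANTCA in a 300-base window, against 7.79% of all windows. Mmp12 and Mmp7 had 2 windows each. None of the tested protease and inhibitor genes with a window held the motif. Tested or not, 12 of the 50 protease and inhibitor genes with a window held it. Outside the cluster these were the untested Adam19, Adam1b, Adam20, Adam25 and Adam29. These counts are of genes, some with several windows, while 7.79% is a share of windows. Each line gives 47 bases from RefSeq on chromosome 9 of GRCm38.p6, on the strand of the gene, with the motif in capitals.
Mmp13, chr9:7272459-7272505, plus strand: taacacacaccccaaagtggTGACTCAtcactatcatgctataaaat
Mmp12, chr9:7347310-7347356, plus strand: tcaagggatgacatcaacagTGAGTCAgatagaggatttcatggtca
Mmp1b, chr9:7388093-7388139, minus strand: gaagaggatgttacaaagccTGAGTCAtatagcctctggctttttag
Mmp3, chr9:7445756-7445802, plus strand: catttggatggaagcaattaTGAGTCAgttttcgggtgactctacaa
Mmp10, chr9:7502259-7502305, plus strand: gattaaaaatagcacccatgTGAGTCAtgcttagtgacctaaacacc
Mmp20, chr9:7628116-7628162, plus strand: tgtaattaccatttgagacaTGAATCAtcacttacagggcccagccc
Mmp7, chr9:7692007-7692053, plus strand: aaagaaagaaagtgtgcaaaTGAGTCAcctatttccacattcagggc
The motif is palindromic apart from its central base, and lay between 35 and 95 bases before the start site in these 7 genes. That base was A in Mmp20 and G or C in the others.

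**Figure D5:**
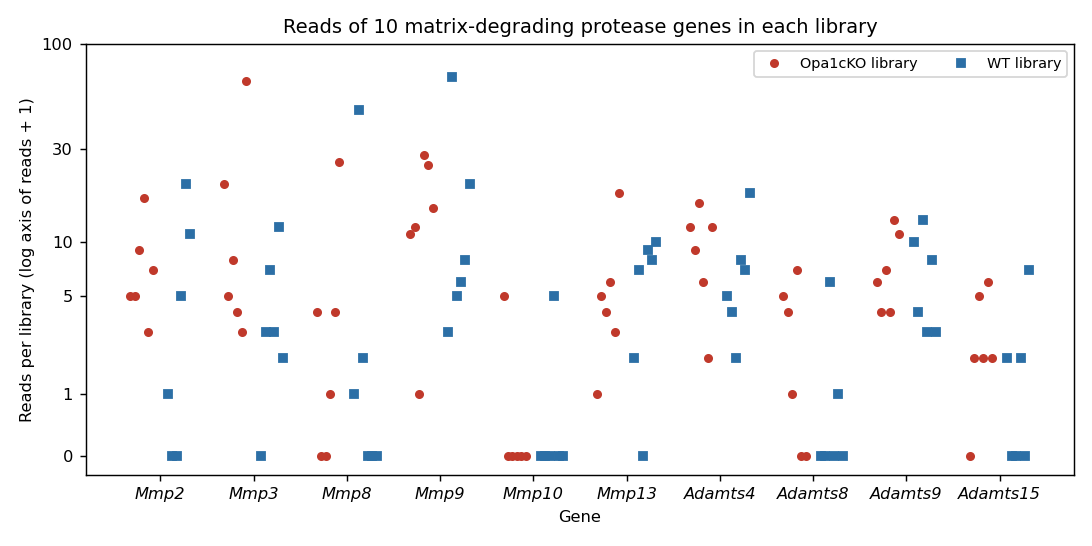
Reads per library (y axis, log axis of reads + 1) of 10 MMP and ADAMTS genes on the x axis, red circles for Opa1cKO and blue squares for WT. The counts stay below 100 in every library, with 66 reads of Mmp3 in Opa1cKO 6 and 69 reads of Mmp9 in WT 2 the highest.

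Genes that act with these proteases were read from the same fit, and a list's count is set beside the 5.1% and 5.13% of all tested genes called higher and lower. The lists were chosen with earlier results of these data known. Their counts therefore cannot show whether a list was called more often than other genes. Of 24 tested activators, cofactors and clearance receptors, 3 were higher and 1 was lower, with a median log2 fold change of 0.22. Bsg, or basigin, known in human cells as an inducer of MMPs, averaged 416 ± 102 CPM in Opa1cKO and 914 ± 135 in WT, with no overlap (log2 fold change -1.23, edgeR adjusted p = 0.000804). The call stood with any 1 library left out. Rhbdf1, or iRhom1, a partner of ADAM17 (0.64, adjusted p = 0.0395), and Tspan5, a tetraspanin partner of ADAM10 (1.35, adjusted p = 0.0479), were also higher, but each call stood in only 3 of the 12 fits that leave out a library. Reck, a membrane-anchored MMP inhibitor, was not called (0.42, adjusted p = 0.0807).

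The ADAMTS-like proteins share the ADAMTS ancillary domains but have no protease domain, and 2 of the 4 tested were higher, with a list median of 0.64. Adamtsl5 averaged 105 ± 32.0 CPM in Opa1cKO and 50.3 ± 16.0 in WT (log2 fold change 1.05, edgeR adjusted p = 0.0241), and the call was lost without Opa1cKO 5 or WT 6. Adamtsl2, which binds fibrillin and latent TGF-beta binding protein, averaged 9.71 ± 8.46 CPM in Opa1cKO and 3.14 ± 1.63 in WT (1.73, adjusted p = 0.0246), and was not called without Opa1cKO 6 (1.04, adjusted p = 0.119) or WT 2. Of 13 tested cathepsins and their inhibitors, 2 fell and 0 were called higher, with a median of 0.10: Ctsa (-0.30, adjusted p = 0.0260) and Ctso (-0.45, adjusted p = 0.0159). Both were lost without Opa1cKO 6, Ctsa also without WT 5 and Ctso also without WT 6.

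Of 19 tested matrix substrates, 2 rose and 0 fell, with a median log2 fold change of 0.62. Bgn, or biglycan, rose by 1.42 (edgeR adjusted p = 0.0128), called with any 1 library left out, and Fn1, or fibronectin, rose by 1.20 (adjusted p = 0.0202), but without Opa1cKO 6 by 0.66 with an adjusted p of 0.0652. Acan, the proteoglycan whose gene drives the Cre, averaged 8628 ± 2968 CPM in Opa1cKO and 13062 ± 2325 in WT (-0.53, adjusted p = 0.103). Of 22 tested upstream cytokines and transcription factors, 4 rose and 1 fell, with a median of 0.47. Tgfb2, a growth factor that in many cells raises TIMP and lowers MMP transcription, averaged 278 ± 32.3 CPM in Opa1cKO and 158 ± 12.6 in WT, with no overlap (0.80, adjusted p = 0.000212). Hif1a, the hypoxia-responsive factor, rose by 0.58 (adjusted p = 0.00130) and Nfkbia, the NF-kappaB inhibitor, fell by 0.59 (adjusted p = 0.00892), both called with any 1 library left out. Tgfb1 (0.82, adjusted p = 0.0179) and the cytokine Lif (1.45, adjusted p = 0.0303) were also called, yet without Opa1cKO 6 Tgfb1 had an adjusted p of 0.128 and Lif of 0.301. The cytokines best known to induce MMPs were at the edge of detection, with 19 reads of Il1b summed over Opa1cKO and 10 over WT, and 4 reads of Tnf over Opa1cKO and 5 over WT.

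Other cell types in the dissected tissue were followed through marker lists. The skin, endothelial, erythroid and muscle lists each summed to at most 13.7 CPM in any Opa1cKO library and 12.8 CPM in any WT library. Both of these maxima were of the muscle list. The 8 annulus, tendon and fibroblast markers summed to 252 to 521 CPM in Opa1cKO and 154 to 365 CPM in WT, most of it Col1a1 (log2 fold change 0.35, edgeR adjusted p = 0.398), with Pdgfra, Tnmd and Thy1 near 0 in both. Opa1cKO 1 to 4 lay above all of WT in this sum, and its part in the protease values was not tested. The 11 macrophage and osteoclast markers summed to 97.3 to 118 CPM in Opa1cKO and 105 to 197 CPM in WT. Of the 5 tested, Cd68 was higher in Opa1cKO (1.28, adjusted p = 0.000152), and Csf1r (-0.88, adjusted p = 0.00468) and Cd163 (-3.98, adjusted p = 4.5e-05) were lower. The defining macrophage genes Adgre1, C1qa, C1qb and Tyrobp all averaged below 0.1 CPM in both genotypes.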

How the data were processed

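Total RNA libraries (50 ng input, stranded kit with ribosomal RNA depletion, 14 PCR cycles, per the labels' protocols) were made from 6 Opa1cKO and 6 WT mice. Per the submitters' processing notes, STAR 2.7.11b and the mm10 build were used. The counting program, annotation and strand setting were not given in the sources used here. Deposited by the authors were whole-number read counts per gene and a TPM table, which scales reads by transcript length. Under R 4.3.3, edgeR 4.0.16 was run on the counts after filterByExpr (minimum count 10, grouped by genotype) and TMM scaling. Genotype and labelled sex entered a robust quasi-likelihood model of all 12 libraries, and p-values were adjusted by Benjamini-Hochberg over 15229 genes, with calls at an adjusted p below 0.05. TPM served to compare levels between genes, and log2(TPM + 1) and log2(TPM + 0.1) in limma 3.58.1 served as alternatives. DESeq2 1.42.0 and limma-voom were others. The fitting code was tested on simulated data. Floors of 3 reads cover counting error only, since PCR copies cannot be told from separate molecules.

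Gene positions come from GENCODE M21 (GRCm38), which matched 32235 of 32285 identifiers, and promoter windows from RefSeq (GRCm38.p6), which matched 50 of the 81 genes. The members and all lists were chosen with earlier results of these data known. Any member could be named: in full were called members with values in every library, the 12 highest by mean TPM, the 6 uncalled ones with the smallest p, and, of other genes, Opa1, called genes of the companion lists with up to 3 uncalled ones, and markers. Adam8, Adam12, Adam33, Adamts4, Adamts7, Adamts12, Adamts17, the low MMPs, Il1b and Tnf were singled out to complete their groups after their values were seen. Other settings were no sex term or sex from reads, a replicate block, scaling, filters, other tools and thresholds, each labelled sex alone, removal of the 4 libraries of contradicted sex and each library left out. Replicates of a genotype differed by far more than counting noise (chi-square over its degrees of freedom at least 33), so no library was counted as a duplicate. A called gene of a companion list is counted, but its own values are not reported here.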

Additional observations from a re-analysis of the deposited data

Results flagged for a closer look

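Single libraries far from the other 5 of their genotype were looked for in all 39 tested genes, which are 78 groups of 6. Dixon's 95% limit marks about 1 group in 20 by chance if values are normal and groups are separate. These groups held CPM values, which need not be normal, and shared the same 12 libraries, so that rate is only a rough guide. In all, 12 libraries were marked because their gap to the nearest one passed that limit relative to the group's range. Of these, 6 were Opa1cKO 6. It had 59.6 CPM of Timp1 (2.50 to 10.8 in the other Opa1cKO libraries), 41.0 of Adamts12 (12.4 to 16.3), 12.5 of Timp4 (2.02 to 3.85) and 4.24 of Adam11 (0.563 to 1.49). It also had 2.55 CPM of Adam12 (0.242 to 0.592) and 44.4 of Htra3 (35.6 to 37.7), the last of these nearer to WT. Opa1cKO 1 had 66.9 CPM of Mmp14 (39.3 to 48.4 in the others) and 0.469 of Adam32 (0.967 to 1.14). Opa1cKO 2 had 3.35 CPM of Mmp17 (0.632 to 1.58). Among WT libraries, WT 2 had 1.53 CPM of Mmp9 (0.0569 to 0.418 in the others), WT 4 had 1.076 of Adam12 (0.0948 to 0.434) and WT 5 had 19.1 of Adam1a (13.5 to 15.2). Their causes were not tested.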

How the results depend on the processing

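Over 29 alternatives, the 4 called genes gave 116 values in all. Of these, 91 stayed called and 25 lost the call, with no change of sign. The alternatives include adjusted p limits of 0.01 and 0.1 on the main fit itself. There the sign cannot change, and at 0.1 no call can be lost. Opa1 was called in all 29. Against 1558 genes and 4 proteases and inhibitors called, an adjusted p below 0.01 gave 554 and 1, and one below 0.1 gave 2473 and 7. With sex taken from reads the counts were 1775 and 5, adding Adam22, and with no sex term 2031 and 6, adding Adam22 and Adam10. Without the 4 libraries of contradicted sex the counts were 325 and 1, in labelled females alone 300 and 0, in labelled males alone 419 and 1, and DESeq2 called 2319 and 7. Those labelled female are 2 Opa1cKO and 4 WT libraries and those labelled male 4 and 2, fewer samples than in all. Reads contradict 1 label of the females and 3 of the males, so these subsets do not hold sex constant. Leaving out each library gave 819 (without Opa1cKO 6) to 1995 genes and 2 (without Opa1cKO 6) to 7 (without Opa1cKO 5) proteases and inhibitors. Replicate numbers did not pair the mice, since correlations of same-numbered libraries ran from -0.217 to 0.043. With a replicate block 1269 genes and 5 proteases and inhibitors were called, adding Adam22 and Adamts6 and losing Timp1 (1.64). Adamts1 reversed to -0.26 in males alone and ranged from -0.27 to 0.31 with libraries left out. Adamts2 reversed to 0.07 with sex taken from reads, 0.062 without the contradicted libraries and 0.14 in females alone, and ranged from -0.19 to 0.035 with libraries left out. Causes were not tested. Genes below about 10 reads a library lie beyond what this depth can compare.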
